A study of Mus musculus with 6 samples.

Results

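The 10 genes described here are interferon-gamma induced GTPases and chemokines. They are the guanylate-binding protein genes Gbp2, Gbp3, Gbp4, Gbp5 and Gbp7, the immunity-related GTPase genes Irgm1, Igtp (also called Irgm3) and Iigp1 (Irga6), and the chemokine genes Cxcl9 and Cxcl10. They were taken by gene symbol from the table of read counts, and all 10 were found among its 49568 gene symbols. Lungs of 3 TNF+ and 3 TNF- mice were compared, with 1 poly(A) RNA library per mouse. In TNF+ mice (TNF-Tg), TNF is made in excess from a human transgene, present once. The TNF- group (WT) consisted of siblings from the same litters that lacked it. All 6 mice were 4 months old, and the methods of the study give a C57BL/6 background and female mice for the sequencing. The tissue was whole lung, so each value is an average over all cells of the organ. In such bulk samples fewer cells of a type and less RNA per cell cannot be told apart.

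Interferon-gamma is released mainly by T cells and natural killer cells. It binds a receptor made of Ifngr1 and Ifngr2, which signals through the kinases Jak1 and Jak2. Promoters of the induced genes often carry gamma-activated sequences (GAS) and interferon-stimulated response elements (ISRE), and the latter are bound by the transcription factor Irf1. The GTPases of the GBP and IRG families are classical targets of this pathway, and they assemble on the vacuoles that hold intracellular bacteria and parasites. Irgm1 and Igtp belong to the regulatory IRG proteins, which sit on the cell's own membranes and hold effector IRG proteins such as Iigp1 in check. Cxcl9 and Cxcl10 are secreted ligands of Cxcr3, a receptor of activated T cells and natural killer cells. Cxcl10 is also a target of NF-kB, the transcription factor family that TNF activates.

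The sequences before the annotated starts are shown for the chemokines, for the GTPase members that passed the test described below and had a sequence in the table, and for Gbp7, which lies next to Gbp5 and did not pass. Each line gives the 250 bases before the start of a gene, read 5′ to 3′ on the strand of the gene, from RefSeq on GRCm38.p6 (mm10). Capitals mark matches on either strand to 3 motifs, which are TTC and GAA with 3 bases of any kind between them (GAS), GAAA and GAAA with 2 bases between them (ISRE), and GGGA and TTCC with 2 bases between them (the kB motif of NF-kB). Matches may overlap. Irgm2, another regulatory IRG gene and not one of the 10, is shown because it lies next to Igtp.
Cxcl9, chr5:92328080-92328329, minus strand: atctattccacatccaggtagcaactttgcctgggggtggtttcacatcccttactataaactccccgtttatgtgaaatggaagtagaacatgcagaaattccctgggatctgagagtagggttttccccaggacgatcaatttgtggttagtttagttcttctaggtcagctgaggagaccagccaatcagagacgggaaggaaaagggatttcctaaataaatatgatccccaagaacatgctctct
Cxcl10, chr5:92348890-92349139, minus strand: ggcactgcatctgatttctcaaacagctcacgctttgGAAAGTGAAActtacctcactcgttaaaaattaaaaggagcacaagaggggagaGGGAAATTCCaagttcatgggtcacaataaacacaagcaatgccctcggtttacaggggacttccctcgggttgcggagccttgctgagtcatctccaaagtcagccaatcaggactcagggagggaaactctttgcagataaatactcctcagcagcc
Gbp5, chr3:142496684-142496933, plus strand: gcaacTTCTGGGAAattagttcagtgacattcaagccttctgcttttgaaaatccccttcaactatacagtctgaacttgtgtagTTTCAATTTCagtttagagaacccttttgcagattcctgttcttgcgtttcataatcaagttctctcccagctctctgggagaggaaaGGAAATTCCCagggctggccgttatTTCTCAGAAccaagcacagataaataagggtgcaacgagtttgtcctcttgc
Gbp7, chr3:142530086-142530335, plus strand: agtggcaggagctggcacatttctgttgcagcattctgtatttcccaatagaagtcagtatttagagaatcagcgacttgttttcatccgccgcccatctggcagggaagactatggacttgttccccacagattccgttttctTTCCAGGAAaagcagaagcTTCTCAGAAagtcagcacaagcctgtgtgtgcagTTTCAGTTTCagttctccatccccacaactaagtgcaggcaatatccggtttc
Irgm1, chr11:48871421-48871670, minus strand: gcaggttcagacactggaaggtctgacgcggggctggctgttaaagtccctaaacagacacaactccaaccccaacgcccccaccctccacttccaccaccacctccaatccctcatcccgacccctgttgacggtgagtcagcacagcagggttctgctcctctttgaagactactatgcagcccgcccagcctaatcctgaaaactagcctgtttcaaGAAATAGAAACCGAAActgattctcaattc
Igtp, chr11:58199306-58199555, plus strand: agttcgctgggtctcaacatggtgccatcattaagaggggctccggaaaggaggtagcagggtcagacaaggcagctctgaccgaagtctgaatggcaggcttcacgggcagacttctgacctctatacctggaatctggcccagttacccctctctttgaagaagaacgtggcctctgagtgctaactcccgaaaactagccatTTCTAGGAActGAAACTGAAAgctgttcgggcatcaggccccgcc
Irgm2, chr11:58214727-58214976, plus strand: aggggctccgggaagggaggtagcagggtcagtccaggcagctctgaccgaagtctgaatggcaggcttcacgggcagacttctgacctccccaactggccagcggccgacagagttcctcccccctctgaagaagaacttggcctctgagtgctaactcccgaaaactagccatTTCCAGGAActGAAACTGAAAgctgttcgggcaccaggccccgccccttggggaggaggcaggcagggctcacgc

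The windows that were searched reach from 250 bases before the start over the first 50 bases from the start on, with 0 as the start. Of the 10 genes, 8 had such a window in the RefSeq table, all but Gbp4 and Iigp1, and Gbp3 had 2 of them, so that 9 windows were searched. An ISRE match was present in 7 of the 9 windows, a GAS match in 3 and a kB match in 3. Among 32851 windows of the same length, 3.44% held an ISRE match, 8.30% a GAS match and 1.47% a kB match. Gbp5 was the gene with all 3 motifs, with GAS matches at -245 to -237 and -52 to -44, an ISRE match at -165 to -156 and a kB match at -77 to -68. Gbp7 had GAS matches at -106 to -98 and -87 to -79 and an ISRE match at -53 to -44. Cxcl10 had an ISRE match at -213 to -204 and a kB match at -159 to -150. Gbp2 had an ISRE match at -59 to -50 and a kB match at 7 to 16, after the start. Gbp3 had overlapping ISRE matches at -45 to -36 and -39 to -30. Cxcl9 had no match to these letters in this window.
Irgm1 had overlapping ISRE matches at -30 to -21 and -24 to -15, and no GAS match. Igtp had a GAS match at -45 to -37, followed after 2 bases by an ISRE match at -34 to -25. Irgm2 had the same pair at -75 to -67 and -64 to -55. The longest run of bases that the Igtp and Irgm2 sequences printed above share was 55 bases long. It lay at -181 to -127 in Igtp and -215 to -161 in Irgm2, and so did not hold the motif pair. These matches describe letters and are not measured binding sites. The motifs were chosen after the values of the genes had been seen.

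**Figure D1:**
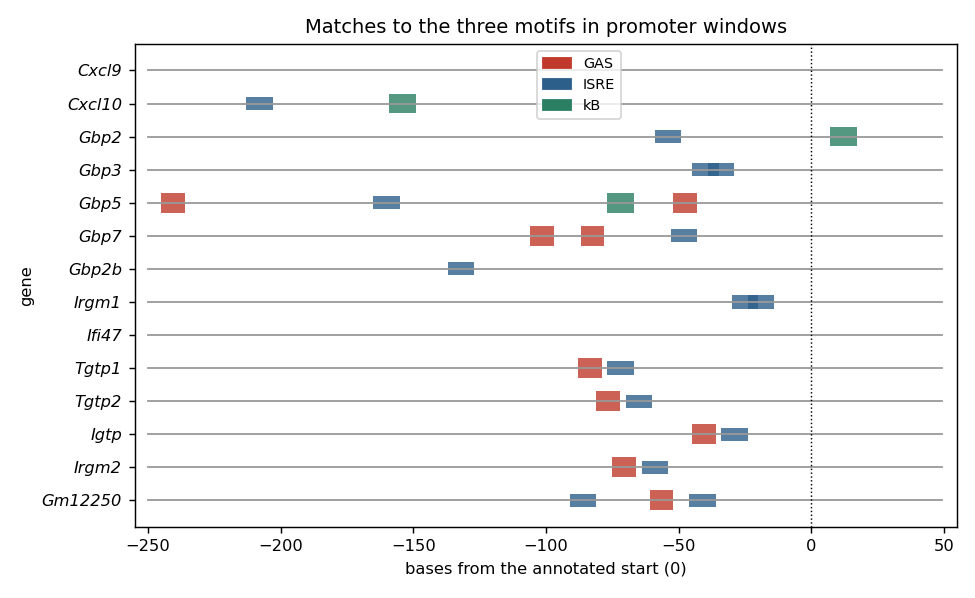
Matches to the GAS, ISRE and kB motifs in the windows of members and of 6 further GBP and IRG genes, with the distance from the annotated start in bases on the x axis and 1 gene per line on the y axis. Igtp and Irgm2 each carry a GAS match (-45 to -37 and -75 to -67) followed by an ISRE match, and Cxcl9 and Ifi47 carry none of the 3.

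The libraries held between 25396923 and 32529408 counts, at which 3 counts correspond to 0.0882 to 0.131 CPM (counts scaled to the TMM-adjusted total of each library). Replicates are different mice, and p-values weigh the difference of the groups against the spread between mice. The ribosomal RNA-like gene Gm42418 took 5.22% of the counts of TNF+ mouse 1 and 0.0774% to 0.274% of those of the other lungs. The library of TNF- mouse 1 held 56570 counts of the squamous keratin Krt4, against 1 to 8 in the other lungs. Values without both of these lungs are given where they matter. The alveolar gene Sftpc, with 286171 to 536883 counts, and the endothelial gene Cdh5, with 7797 to 28052, were abundant in every lung. The mouse Tnf gene had 106, 213 and 405 counts in TNF+ lungs and 16, 14 and 35 in TNF- lungs. It was higher in TNF+ lungs by 3.62 on the log2 scale (standard error, SE, 0.46 and adjusted p = 0.000471), and the human transgene has no row of its own.

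Cxcl9 and Cxcl10 rose about 20-fold in TNF+ lungs, whereas single GTPase genes differed in both directions. The summed level of the GTPases overlapped between the groups, through TNF- mouse 1. Gbp5 and Irgm1 were higher in TNF+ lungs, Gbp4 and Igtp were lower, and Gbp2, Gbp3, Gbp7 and Iigp1 did not pass the test. All tests on single genes were edgeR quasi-likelihood tests over the 19199 genes that passed its filter on low counts, with Benjamini-Hochberg adjustment over all of them and a threshold of 0.05. All 10 members passed that filter. Of the 10, 6 passed the threshold (60%), where 47.4% of all genes tested did. Of the 10, 4 were higher in TNF+ lungs (24% of all genes tested) and 2 were lower (23.4% of all genes tested). The values of TNF+ and TNF- lungs did not overlap for the same 6 genes, against 58.7% of all genes tested (30.5% with TNF+ lungs above and 28.2% with TNF+ lungs below). The share of GTPase genes that passed, 4 of 8 or 50%, was close to the share of all genes.

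**Figure D2:**
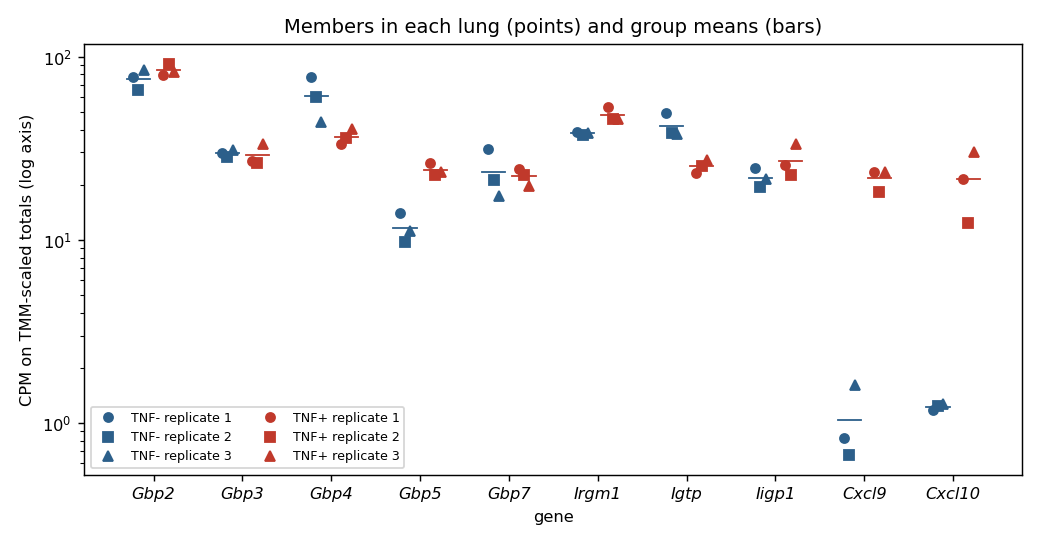
CPM of the 10 members in each lung on a log axis, with points for the 3 TNF- (blue) and 3 TNF+ (red) mice and bars for the group means. Cxcl9 and Cxcl10 lie between 0.666 and 1.62 CPM in TNF- lungs and between 12.4 and 30.3 CPM in TNF+ lungs, whereas the GTPase genes differ by far less.

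Cxcl9 (ENSMUSG00000029417, chr5:92321347-92328079, minus strand) had 535, 533 and 748 counts in TNF+ lungs, against 26, 21 and 55 in TNF- lungs. Every TNF+ lung was far above every TNF- lung. The mean was 21.6 ± 2.95 CPM (SD, n = 3) in TNF+ lungs and 1.03 ± 0.51 CPM (SD, n = 3) in TNF- lungs. TNF+ lungs were thus higher by 4.37 on the log2 scale (SE 0.31, 95% interval 3.65 to 5.09, adjusted p = 2.8e-05), or 20.7-fold. It stayed between 4.13 and 4.85 when each lung was left out in turn.

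Cxcl10 (ENSMUSG00000034855, chr5:92346638-92348889, minus strand) had 494, 363 and 970 counts in TNF+ lungs, against 37, 39 and 43 in TNF- lungs. The TNF- lungs were nearly equal, whereas the TNF+ lungs spread more than those of any other member. The mean was 21.4 ± 8.94 CPM (SD, n = 3) against 1.22 ± 0.0485 CPM (SD, n = 3). This is a rise by 4.13 on the log2 scale (SE 0.33, 95% interval 3.36 to 4.89, adjusted p = 4.63e-05), or 17.5-fold, and 3.77 to 4.40 with each lung left out. Of all genes tested, 268 (1.4%) passed the threshold with a log2 fold change of at least that of Cxcl10. Of its annotated exon bases, 133 (5.91%) also belong to Art3 on the opposite strand, and the strand setting of the counting is not given in the sources used here.

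The ratio of the chemokines to each other was then compared within each lung, which removes the scaling of the libraries. The log2 ratio of Cxcl9 to Cxcl10 was 0.11, 0.55 and -0.37 in TNF+ lungs and -0.50, -0.88 and 0.35 in TNF- lungs. The groups overlapped, with a difference of means of 0.44 (p = 0.4, exact two-sided permutation test, where 3 against 3 lungs cannot go below 0.1). With 1 lung left out this difference lay between 0.17 (without TNF- mouse 2) and 0.79 (without TNF- mouse 3). Cxcl9 and Cxcl10 together made up 13.3%, 9.48% and 15% of the summed CPM of the members in TNF+ lungs. In TNF- lungs they made up 0.578%, 0.674% and 0.999%.

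The third Cxcr3 ligand, Cxcl11, lies in the same cluster (chr5:92321347-92365485 from Cxcl9 to Cxcl11) and is annotated as a polymorphic pseudogene. It had 3, 4 and 2 counts in TNF+ lungs and 2, 1 and 0 in TNF- lungs, and was too low to be tested. Cxcr3 itself had 273, 461 and 298 counts in TNF+ lungs and 125, 116 and 182 in TNF- lungs. The receptor gene was higher in every TNF+ lung than in any TNF- lung (log2 fold change 1.51, SE 0.24, adjusted p = 0.00129). Ackr1, which binds many chemokines on venules and red cells without signalling, was higher by 3.26 (adjusted p = 4.9e-05), from 13, 17 and 25 counts to 143, 140 and 171. Ackr3, an atypical receptor of Cxcl11 and Cxcl12, fell by 0.69 on the log2 scale (adjusted p = 0.00205). Dpp4, a protease that trims and inactivates Cxcr3 ligands, fell by 1.29 on the log2 scale (adjusted p = 5.64e-05), with 706 to 962 counts in TNF+ lungs and 2209 to 2274 in TNF- lungs. All 4 tested genes of this list of receptors and processing enzymes passed the threshold, 2 higher and 2 lower. Of all genes tested, 47.4% passed.

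Among the GBP genes, Gbp5 was the single member that rose. Gbp5 (ENSMUSG00000105504, chr3:142493978-142522344, plus strand), a promoter of inflammasome assembly, had 600, 661 and 749 counts in TNF+ lungs and 443, 305 and 378 in TNF- lungs. The groups did not overlap, with 26.2, 22.6 and 23.4 CPM against 14.0, 9.67 and 11.1 CPM. Gbp5 rose by 1.05 on the log2 scale (SE 0.16, 95% interval 0.70 to 1.41, adjusted p = 0.000968), or 2.07-fold, and it passed the threshold with each lung left out (0.93 to 1.18).

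Gbp4 (ENSMUSG00000079363, chr5:105115767-105139586, minus strand) went the other way. It had 765, 1056 and 1283 counts in TNF+ lungs and 2448, 1910 and 1494 in TNF- lungs. In CPM these were 33.4, 36.1 and 40.1 against 77.4, 60.6 and 43.9, so that the groups did not overlap but the TNF- lungs spread widely. The log2 difference of the groups was -0.73 (SE 0.19, 95% interval -1.17 to -0.29, adjusted p = 0.0143), or 1.66-fold lower. It was -0.92 to -0.54 and passed with each lung left out, but without both lungs numbered 1 it was -0.49 and did not pass (adjusted p = 0.0813).

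The other GBP members did not pass. Gbp2 (ENSMUSG00000028270, chr3:142620602-142638008, plus strand), the most abundant member per length, had 79.6, 91.7 and 82.9 CPM in TNF+ lungs and 77.3, 65.4 and 84.6 in TNF- lungs. The log2 fold change of Gbp2 was 0.16 (95% interval -0.11 to 0.43, adjusted p = 0.291). Gbp3 (ENSMUSG00000028268, chr3:142560026-142573209, plus strand) had 27.1, 26.4 and 33.2 CPM in TNF+ lungs and 29.8, 28.3 and 30.8 in TNF- lungs. For both genes the lungs of the groups overlapped. The log2 fold change of Gbp3 was -0.03, with a 95% interval of -0.30 to 0.23 (adjusted p = 0.825). Gbp7 (ENSMUSG00000040253, chr3:142530342-142550149, plus strand), which is involved in the assembly of the oxidase that makes superoxide, had 24.4, 22.6 and 19.7 CPM in TNF+ lungs and 31.3, 21.3 and 17.4 in TNF- lungs. Its difference on the log2 scale was -0.07 with a wider interval, -0.55 to 0.41 (adjusted p = 0.809), and TNF- mouse 1 was the highest of the 6. Gbp7 shares 637 exon bases (11.3%) with the pseudogene Gm43802 on the same strand, so its counts are less certain.

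The 6 further GBP genes of the mouse were counted from a list. None of them passed with edgeR, where 47.4% of all genes tested did. With edgeR 0 of 6 had an unadjusted p under 0.05, and 0 of 6 passed with DESeq2 or limma-voom. Their log2 fold changes ran from -0.50 (Gbp2b, 6, 13 and 29 counts against 26, 19 and 31) to 0.29 (Gbp8, 258, 302 and 454 counts against 294, 316 and 336). The value of Gbp2b rests on single lungs, with -1.13 (adjusted p = 0.0741) without TNF+ mouse 3 and -0.23 without TNF+ mouse 1. Gbp9, the most abundant of the 6, had 52.5 ± 5.46 CPM in TNF+ and 58.5 ± 10.7 CPM in TNF- lungs (SD, n = 3), a log2 fold change of -0.16. Gbp11 was at -0.36, Gbp6 at 0.12 and Gbp10 at 0.09. Of all 100-base windows of their transcripts, Gbp6 shares 64.5% and Gbp10 73.5% with other loci, so reads of these genes may not be told apart.

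**Figure D3:**
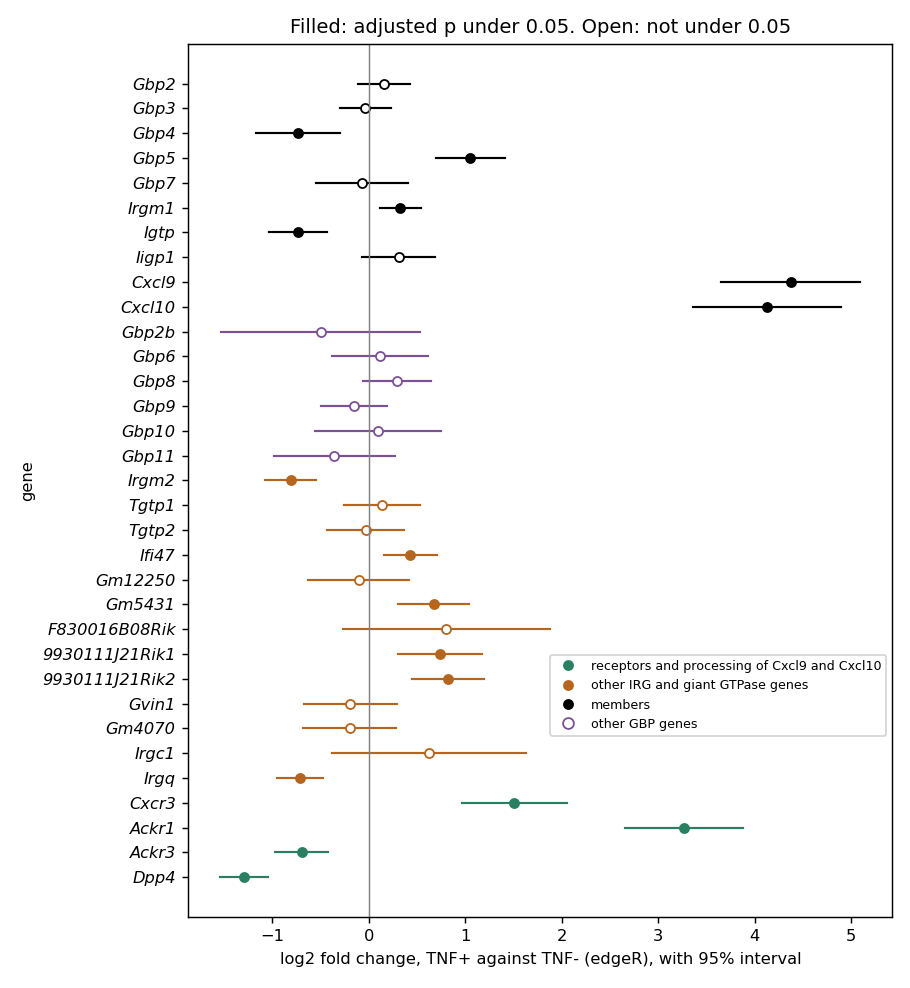
Log2 fold change between TNF+ and TNF- lungs with 95% interval for the 10 members, the other GBP genes, the other IRG and giant GTPase genes and the receptors and processing enzymes of Cxcl9 and Cxcl10, with 1 gene per line. Filled points passed an adjusted p of 0.05. Cxcl9 (4.37) and Cxcl10 (4.13) stand far to the right, while the GBP and IRG genes lie between -0.81 (Irgm2) and 1.05 (Gbp5).

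Among the IRG genes, the regulatory members parted. Igtp (ENSMUSG00000078853, chr11:58199556-58207591, plus strand) had 532, 738 and 870 counts in TNF+ lungs and 1562, 1210 and 1290 in TNF- lungs. The groups did not overlap, with 23.2, 25.3 and 27.2 CPM against 49.4, 38.4 and 37.9 CPM. On the log2 scale Igtp was at -0.73 (SE 0.13, 95% interval -1.03 to -0.43, adjusted p = 0.00237), or 1.66-fold lower, and it passed with each lung left out (-0.80 to -0.62).

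Irgm1 (ENSMUSG00000046879, chr11:48861968-48871683, minus strand) had 1210, 1330 and 1459 counts in TNF+ lungs and 1225, 1180 and 1303 in TNF- lungs. In CPM these were 52.8, 45.5 and 45.6 against 38.7, 37.4 and 38.3, and the groups did not overlap. Irgm1 rose by 0.33 on the log2 scale (SE 0.09, 95% interval 0.11 to 0.55, adjusted p = 0.0206), or 1.26-fold. This call was the least stable of the 6. It was lost without TNF+ mouse 1 (0.22, adjusted p = 0.125), without TNF- mouse 1 (adjusted p = 0.0671), without TNF- mouse 2 (adjusted p = 0.0723), and without both lungs numbered 1 (0.23, adjusted p = 0.264). Scaling by total counts alone gave 0.30 and an adjusted p of 0.0671.

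Iigp1 (ENSMUSG00000054072, chr18:60376027-60392634, plus strand), the effector among the members, had 25.6, 22.5 and 33.2 CPM in TNF+ lungs and 24.6, 19.3 and 21.6 in TNF- lungs. TNF+ mouse 3 was high and the groups overlapped. Its difference was 0.31 on the log2 scale (SE 0.16, adjusted p = 0.152).

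Irgm2, the third regulatory gene, fell with Igtp. It had 933, 1272 and 1417 counts in TNF+ lungs and 2721, 2337 and 2201 in TNF- lungs, a log2 fold change of -0.81 (SE 0.12, adjusted p = 0.000845). The log2 ratio of Irgm2 to Igtp within a lung was 0.81, 0.78 and 0.70 in TNF+ lungs and 0.80, 0.95 and 0.77 in TNF- lungs, and it overlapped between the groups. The log2 ratio of Irgm1 to Igtp was 1.18, 0.85 and 0.75 in TNF+ lungs and -0.35, -0.04 and 0.01 in TNF- lungs. Thus Irgm1 had 1.68 to 2.27 counts for each count of Igtp in TNF+ lungs and 0.784 to 1.01 in TNF- lungs. Igtp and Irgm2 share 162 annotated exon bases on the same strand (8.01% of those of Igtp), and reads there may not be told apart. No test was run on these ratios, since they were chosen after the values had been seen.

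The same within-lung ratios were taken for the GBP genes, also after their values had been seen. The log2 ratio of Gbp5 to Gbp4 was -0.35, -0.68 and -0.78 in TNF+ lungs and -2.46, -2.64 and -1.98 in TNF- lungs. That of Gbp5 to its chromosomal neighbour Gbp7 was 0.10, 0.00 and 0.25 against -1.16, -1.14 and -0.64. For Gbp2 to Gbp4 it was 1.25, 1.34 and 1.05 against -0.00, 0.11 and 0.95. None of these ratios overlapped between the groups, although TNF- mouse 3 came close for Gbp2 to Gbp4.

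**Figure D4:**
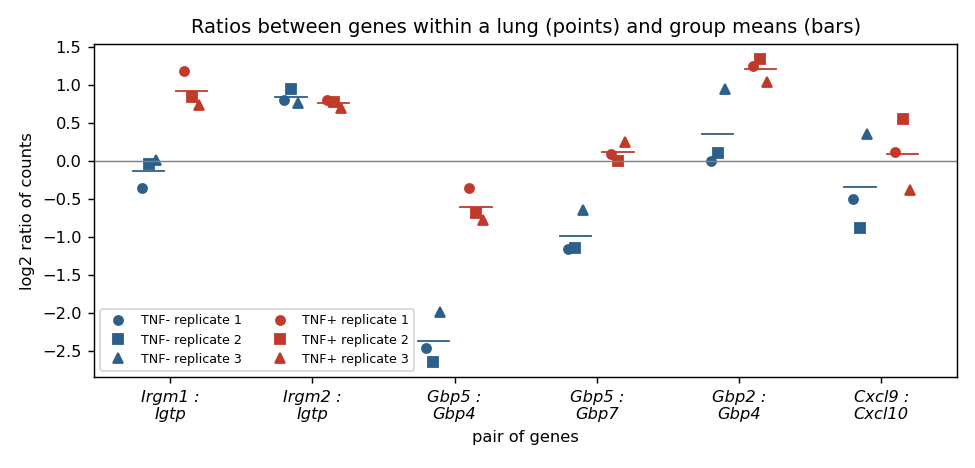
Log2 ratio of the counts of 2 genes within each lung for 6 pairs of genes, with points for the 3 TNF- (blue) and 3 TNF+ (red) mice and bars for the group means. Irgm1 to Igtp and Gbp5 to Gbp4 do not overlap between the groups, whereas Irgm2 to Igtp (0.70 to 0.95 over all lungs) and Cxcl9 to Cxcl10 do.

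Of 13 further IRG and giant GTPase genes tested, TNF+ lungs had 4 higher and 2 lower (46.2%, where 47.4% of all genes tested passed). Their median log2 fold change was 0.14, beside 0.03 for all genes tested. Higher were Ifi47 (0.43, adjusted p = 0.0178), Gm5431 (0.67, adjusted p = 0.0093), 9930111J21Rik1 (0.74, adjusted p = 0.0135) and 9930111J21Rik2 (0.82, adjusted p = 0.00424). Ifi47, also called Irgd, passed in 2 of 6 fits with a lung left out, those without TNF+ mouse 2 or TNF- mouse 1 (adjusted p of 0.0505 to 0.0619 in the other 4). Lower were Irgm2 and Irgq (-0.71, adjusted p = 0.000903), a divergent IRG relative. Tgtp1 (0.14) and Tgtp2 (-0.03), Gm12250 (-0.10, also called Irgb10), F830016B08Rik (0.81, on 12 to 51 counts), Irgc1 (0.63, on 8 to 21 counts) and the giant GTPase genes Gvin1 (-0.19) and Gm4070 (-0.19) did not pass. Shared sequence was high for Tgtp1 (73.1% of windows), Tgtp2 (76.8%), 9930111J21Rik1 (70.5%), 9930111J21Rik2 (48.3%), Gm5431 (20.6%), Gvin1 (97.8%) and Gm4070 (95.6%), so their values are uncertain. By contrast Gbp2, Irgm1, Iigp1 and Cxcl9 shared no such window with another locus.

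The genes lie in clusters, and their directions were read along the chromosomes, a grouping made after the values had been seen and given without a test. In the cluster on chromosome 11 from Irgm1 to Ifi47 (chr11:48861968-49096974), 5 of 7 genes were higher and none was lower, where 24% of all genes tested were higher and 23.4% were lower. Of these 5, 9930111J21Rik1, 9930111J21Rik2 and Gm5431 share sequence with each other, and the calls of Irgm1 and Ifi47 were lost in 3 and 4 of the 6 fits with a lung left out. In the second cluster on the same chromosome (chr11:58187739-58222782, Gm12250, Igtp and Irgm2), none of 3 was higher and 2 were lower. In the GBP cluster on chromosome 3 (chr3:142493978-142638008), 1 of 5 was higher, and in that on chromosome 5 (chr5:105014150-105346472), 1 of 6 was lower.

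Summed over the 8 GTPase members, the TNF+ lungs had 292, 293 and 305 CPM and the TNF- lungs 343, 280 and 286 CPM. The groups overlapped, and the ratio of the means was 0.980. TNF- mouse 1 was the highest lung, and every TNF+ lung was above TNF- mice 2 and 3. Cxcl9 and Cxcl10 together had 44.9, 30.7 and 53.7 CPM in TNF+ lungs and 1.99, 1.90 and 2.88 CPM in TNF- lungs, a ratio of 19.1. Over the GTPase members the median log2 fold change was 0.06, beside 0.03 for all genes tested.

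Divided by exon length, the order of the members' levels also differed. In TNF- lungs Gbp2 (30.1 CPM per kilobase) was highest, followed by Igtp (20.7), Gbp3 (9.07), Gbp4 (8.09), Irgm1 (6.57), Gbp7 (4.15), Iigp1 (3.75), Gbp5 (1.75), Cxcl10 (0.543) and Cxcl9 (0.343). Neighbours whose lungs overlapped were Gbp3 and Gbp4, Gbp4 and Irgm1, Gbp7 and Iigp1, and Cxcl10 and Cxcl9. In TNF+ lungs the order was Gbp2 (33.7 CPM per kilobase), Igtp (12.5), Cxcl10 (9.51), Gbp3 (8.85), Irgm1 (8.25), Cxcl9 (7.18), Gbp4 (4.87), Iigp1 (4.65), Gbp7 (3.96) and Gbp5 (3.63). Lungs overlapped from Igtp down to Irgm1 and from Gbp4 down to Gbp5, neighbour by neighbour. Thus the chemokines were the lowest members in TNF- lungs and lay among the GTPases in TNF+ lungs.

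The pathway upstream of these genes was read from a list of interferon-gamma signalling genes. Of 13 tested, TNF+ lungs had 7 higher and 2 lower (69.2%, where 47.4% of all genes tested passed). The median log2 fold change of this list was 0.59. Ifng had 17, 8 and 22 counts in TNF+ lungs and 6, 7 and 9 in TNF- lungs and did not pass the filter. Without a filter edgeR gave 1.30 (SE 0.53, adjusted p = 0.0908), and DESeq2 gave 1.29 (adjusted p = 0.159). With 1 lung left out Ifng passed the filter in 4 of 6 fits, and it passed the threshold without TNF+ mouse 2 (1.64, adjusted p = 0.0185) but not without TNF- mouse 1, 2 or 3 (1.17 to 1.43, adjusted p of 0.0802 to 0.145). The transcript of the cytokine was thus at the lower end of what these libraries can measure. Both receptor chains were higher, Ifngr1 with 248 ± 15.3 CPM against 107 ± 11 CPM (SD, n = 3; log2 fold change 1.21, adjusted p = 9.33e-05) and Ifngr2 with 92.7 ± 12.4 CPM against 31.7 ± 1.90 CPM (SD, n = 3; 1.55, adjusted p = 3.74e-05). Jak2 was higher by 1.10 (adjusted p = 6.37e-05), whereas Jak1, at 0.26, did not pass (adjusted p = 0.0758).

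The transcription factors of the IRF family differed. Irf1 had 1889, 2995 and 3607 counts in TNF+ lungs and 2886, 2962 and 3293 in TNF- lungs, and the groups overlapped (0.08, SE 0.12, adjusted p = 0.632). Irf8, a factor of the myeloid lineage, was higher by 1.06 (adjusted p = 8.14e-05), Irf2 was at 0.17 and did not pass (adjusted p = 0.205), and Irf9, a factor of type I interferon signalling, was lower (-0.51, adjusted p = 0.0037). Among inhibitors of the pathway, Socs1 was higher by 1.16 (adjusted p = 0.0086), Socs3 by 0.59 (adjusted p = 0.0191) and the phosphatase gene Ptpn2 by 1.00 (adjusted p = 0.000766). The call of Socs3 held without TNF+ mouse 2 or TNF- mouse 3 but not in the other 4 fits with a lung left out (adjusted p of 0.0726 to 0.0815). Usp18, which like Irf9 is known from type I interferon signalling, was lower (-0.62, adjusted p = 0.0138, and 0.0531 without TNF+ mouse 2). Pias1 was at -0.09 and did not pass (adjusted p = 0.424).

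Other lists were counted to see where the members stand. Of all genes tested, 47.4% passed the threshold, 24% higher and 23.4% lower. Of 24 other known targets of interferon-gamma, 15 were higher and 2 were lower (70.8% in all), with a median log2 fold change of 0.90. Nos2, the inducible nitric oxide synthase, was higher by 1.78 (adjusted p = 0.00138), and Cd274, which encodes the checkpoint ligand PD-L1, by 1.84 (adjusted p = 3.43e-05). Ido1, the tryptophan-degrading enzyme, was lower (-2.02, adjusted p = 0.0176) on 2 to 30 counts per lung, and not past the threshold without TNF+ mouse 1 or TNF+ mouse 3 (adjusted p up to 0.0602). Ciita, the regulator of class II antigen presentation genes, was at 0.11 and did not pass (adjusted p = 0.612). Of 20 type I interferon genes, 4 were higher and 2 were lower (30% in all), with a median of 0.19. Isg15 (0.16), Ifit1 (0.23), Ifit2 (-0.23) and Ifit3 (-0.30) did not pass. Of 15 tested NF-kB targets, 14 were higher and none was lower (93.3% in all), with a median of 2.11. Nfkbia (1.57), Nfkbiz (1.10), Tnfaip2 (3.44) and Tnfaip3 (3.74) were among them, with adjusted p-values from 5.09e-06 to 0.00471.

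**Figure D5:**
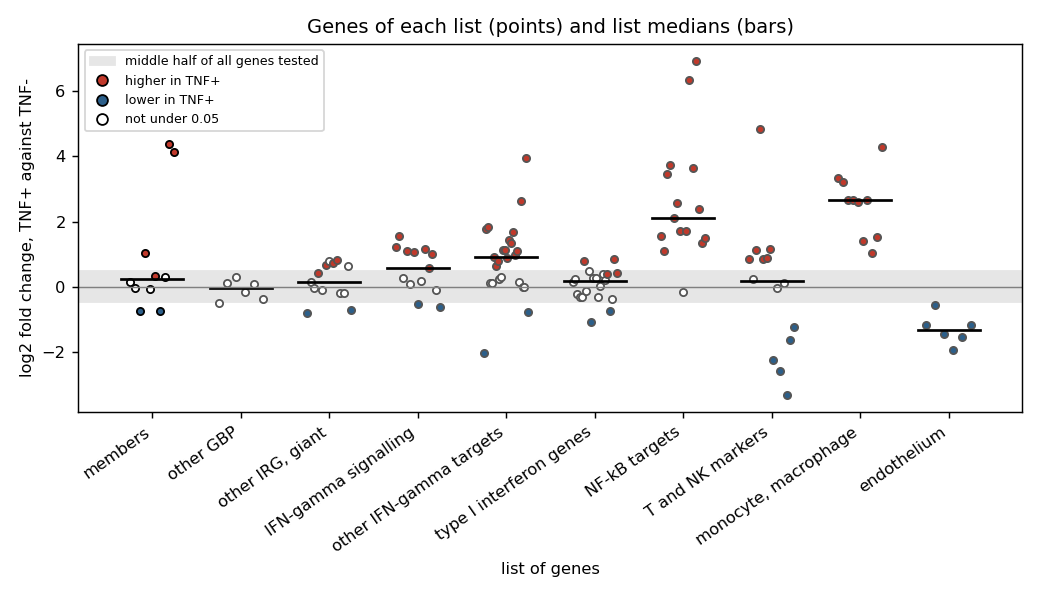
Log2 fold change between TNF+ and TNF- lungs for each tested gene of 10 lists, with bars for list medians and a grey band from the lower to the upper quartile of all genes tested (-0.46 to 0.49). The medians run from -1.31 for endothelial markers over 0.24 for the 10 members and 2.11 for NF-kB targets to 2.65 for monocyte and macrophage markers.

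Markers of cell types moved between the same groups, and their part in the results above was not tested. All 10 monocyte and macrophage markers were higher in TNF+ lungs (Cd68 3.33, Adgre1 3.20, Csf1r 2.66 and Itgam 2.64 on the log2 scale), with a summed level of 10015 to 11002 CPM against 3028 to 3096 CPM, and none of them was at 0 in any lung. All 6 endothelial markers were lower (Cdh5 -1.17, Pecam1 -0.56, Kdr -1.44 and Tek -1.94), with a sum of 1380 to 1596 CPM against 2749 to 3311 CPM. Of 7 epithelial markers 6 were lower, with 16563 to 21702 CPM against 33680 to 40853 CPM, and of 6 mesenchymal markers 5 were lower. Of 14 T cell and natural killer cell markers, 6 were higher and 5 were lower. Cd3d (0.86), Cd3g (1.13) and Cd4 (4.84) were higher, and Cd3e, at 0.23, did not pass. Cd3d passed only without TNF- mouse 3 when a lung was left out (adjusted p up to 0.106). Of 7 dendritic cell markers 3 were higher and 1 was lower, of 6 B cell and plasma cell markers 5 were higher, and of 6 neutrophil markers 1 was higher and 4 were lower. Lower were also 4 of 5 tested squamous epithelium genes, 7 of 8 skeletal and heart muscle genes, 1 of 4 tested fat cell genes and 5 of 5 red blood cell genes. TNF- mouse 1 carried nearly all of the squamous level, with a sum of 3570 CPM, where TNF- mice 2 and 3 had 19.5 and 32.7 CPM and the TNF+ mice 11.3 to 16.4 CPM. It was also highest for the muscle genes, with 2595 CPM, where TNF- mice 2 and 3 had 1048 and 930 CPM and the TNF+ mice 264 to 309 CPM.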

How the data were processed

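The authors extracted RNA from the lungs of 3 TNF+ and 3 TNF- mice, and stranded poly(A) libraries were sequenced as single reads. Per the labels, the authors used Trimmomatic (version 0.36), STAR (version 2.5.2b) on GRCm38.p5 (mm10) and featureCounts, whose version, strand setting and annotation are not given in the sources used here. The deposited values are raw counts of reads per gene symbol, without normalization. All 6 columns were matched to mice by genotype and number.

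The test was the quasi-likelihood test of edgeR (version 4.0.16, in R 4.3.3) on genotype alone, with its filter on low counts, TMM normalization and Benjamini-Hochberg adjustment at 0.05. Standard errors are the size of the log2 fold change divided by the square root of F. The members and lists were chosen with earlier results of these data known. Genes are named if they are members, belong to the lists of further GBP, IRG, receptor and signalling genes, are among the first 4 of another list, or are among the 5 genes whose profile was closest to the members' mean (log2 CPM, prior count 2). Mouse Tnf and Gm42418 are named as checks, and others are said to be chosen later. Alternatives were DESeq2 (version 1.42.0), limma-voom (limma version 3.58.1), scaling by the size factors of DESeq2 or by totals alone, no filter, the replicate number as a block, another pseudocount for the ratio of Cxcl9 to Cxcl10 (5 in place of 0.5), each lung left out, and, chosen after seeing the data, 4 lungs without both numbered 1.

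Same-numbered mice are different animals and showed no shared deviation from the means of their groups (correlations across genes of -0.15, -0.00 and -0.24), so no block was used. No library was a duplicate of another (between replicates chi-square divided by its degrees of freedom was 53.7 to 140). Coordinates, exon lengths and shared 100-base windows are from GENCODE M21, and promoters from RefSeq on GRCm38.p6. The fits with edgeR (with and without the block), DESeq2 and limma-voom were tested on simulated counts with known changes. Depth, 25396923 to 32529408 counts, put 3 counts at 0.0882 to 0.131 CPM. Protein sequences and the promoters of Gbp4 and Iigp1 were not used here. The signalling list was shortened by an item that is not reported here.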

Additional observations from a re-analysis of the deposited data

How the results depend on the processing

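With DESeq2, limma-voom, DESeq2's size factors, no filter and the replicate number as a block, 6 members passed as in the edgeR fit, with total counts only 5, with a lung left out 5 or 6, and with the 4 lungs that are left without both numbered 1, 4 members (1 lower, Igtp, in place of 2). In those 4 lungs 2689 genes were higher in place of 4610, and 2 autophagy genes, 3 B cell and plasma cell genes and 3 inducers of interferon-gamma passed in place of 4, 5 and 5. With fewer lungs the test has less power. The inducers also numbered 3 with total counts only and 3 with the replicate block, and 2 to 5 with a lung left out, type I interferon genes 3 to 8 and autophagy genes 2 to 4. With the block 7686 genes passed, and no member's call changed. Over all settings the median log2 fold change of all genes tested stayed between -0.0008 and 0.057. The difference of the group means of the log2 ratio of Cxcl9 to Cxcl10 stayed above 0 (0.17 to 0.79), although the ratio had both signs within each group.

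Genes near 0 that were never called changed sign. With a lung left out their log2 fold changes ran from -0.16 to 0.028 for Gbp3, -0.25 to 0.18 for Gbp7, -0.016 to 0.28 for Tgtp1, -0.18 to 0.13 for Tgtp2, -0.039 to 0.16 for Irf1, -0.28 to 0.10 for Gm12250, -0.34 to 0.078 for Gvin1, -0.34 to 0.075 for Gm4070, -0.089 to 0.27 for Gbp6 and -0.14 to 0.44 for Gbp10. Without both lungs numbered 1, Gbp7 was at 0.089, Tgtp2 at 0.15, Gm12250 at 0.14, Gvin1 at 0.044 and Gm4070 at 0.039. The causes of these moves were not tested.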

Other observations

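Genes that work around the members were counted from lists as well. Of 12 tested genes that drive the production of interferon-gamma, 4 were higher and 1 was lower in TNF+ lungs (median log2 fold change 0.46). This is 41.7%, where 47.4% of all genes tested passed. The chain Il12a (0.39) and the receptor chains Il12rb1 (0.69, adjusted p = 0.0543) and Il12rb2 (0.31) of interleukin-12 signalling did not pass, and Il12b, with 2 to 30 counts per lung, was under the filter. Without a filter edgeR gave -1.56 for Il12b (adjusted p = 0.0811), and DESeq2 gave -1.60 (adjusted p = 0.115). Il12b passed without TNF- mouse 1 (-1.94, adjusted p = 0.0368) and without both lungs numbered 1 (-2.34, adjusted p = 0.0304), and in the 3 fits without a TNF+ mouse it did not pass (-1.99 to -1.15). Of 10 genes of the autophagy machinery that places IRG and GBP proteins on vacuoles, 3 were higher and 1 was lower (median 0.16). This is 40%, also below the share of all genes tested. Atg5 was higher by 0.86 (adjusted p = 0.000573) and Atg7 by 0.52 (adjusted p = 0.0222, but past the threshold only without TNF+ mouse 3 when a lung was left out), while Atg3 (0.24, adjusted p = 0.0623) and Atg12 (0.20, adjusted p = 0.165) did not pass.

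The T cell and natural killer cell markers moved in both directions. The genes that fell were Ncr1 (-2.22), Klre1 (-2.57), Gzma (-3.31), Gzmb (-1.62) and Prf1 (-1.23), known from natural killer cells and cytotoxic cells, and they are named here after their values were seen, while Klrb1c (-0.03) and Nkg7 (0.12), also known from these cells, did not pass. Cd8a (0.86), Cd8b1 (0.88) and Trac (1.16) rose beside Cd3d, Cd3g and Cd4, and are also named after the fact. Cxcr3 rose in the same lungs.

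The members did not share 1 profile over the 6 lungs. On centred log2 CPM, Gbp5 was the member closest to their mean (distance 0.36) and Cxcl9 the farthest (4.40). The genes of the whole table closest to that mean were Smc6 (distance 0.093, log2 fold change 0.81), Nck1 (0.10 and 0.91), Igfals (0.10 and 0.90), Eif4a-ps4 (0.12 and 0.81) and Cbx3-ps5 (0.13 and 0.89). Likeness was measured over 6 samples. The mean profile was not scaled by gene, so Cxcl9 and Cxcl10, with log2 fold changes of 4.37 and 4.13, weigh far more in it than the GTPases, which lay between -0.73 and 1.05.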
